A study of Homo sapiens with 18 samples.

Results

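CRB2 and 9 other genes of the apical polarity machinery (CRB3, PALS1, PATJ, PARD3, PARD6B, PRKCI, LLGL2, SCRIB and DLG1) were followed in OVCAR-3 cells, an established line of high-grade serous ovarian cancer, under BET inhibition. The genes were listed by name among the 58825 genes of the count tables, with CRB2 picked because of its large fall at 24 h. Its late values are therefore a description without a test, and counts of genes past the threshold at 24 h are over the 9 other genes. Poly-A RNA was sequenced from cells in stripped medium with DMSO (the vehicle), 1 µM i-BET858 or 1 µM i-BET151 for 4 or 24 h, with 3 replicates of each of the 6 groups and thus 18 libraries. Both drugs are inhibitors of the BET proteins, which read acetylated histones, and all groups came from the same line, grown in plates, with DMSO as the only control.

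Epithelial cells separate an apical from a basolateral surface with 3 protein modules that keep each other in place. At the apical side, the transmembrane Crumbs proteins (CRB2, CRB3) bind the scaffold PALS1, which carries PATJ. The PAR complex (PARD3, PARD6B and the kinase aPKCι, encoded by PRKCI) works at the apical border, and the Scribble module (SCRIB, DLG1 and the LGL protein LLGL2) works at the basolateral side, where aPKC and LGL oppose each other. Loss of this order is a known feature of carcinomas. RNA levels do not show where a protein sits in the cell, so the values below concern transcripts.

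CRB2 (ENSG00000148204.12) lies on the plus strand of chromosome 9 of GRCh38, at chr9:123356170-123380324. Its promoter is printed because CRB2 carried the largest change among the 10 genes. The RefSeq window of 250 bases before to 50 bases after the upstream start, chr9:123355947-123356246 on the plus strand of GRCh38.p14, reads as follows, with a GC box (GGGCGG, here on the opposite strand as CCGCCC) in capitals.
CRB2 promoter: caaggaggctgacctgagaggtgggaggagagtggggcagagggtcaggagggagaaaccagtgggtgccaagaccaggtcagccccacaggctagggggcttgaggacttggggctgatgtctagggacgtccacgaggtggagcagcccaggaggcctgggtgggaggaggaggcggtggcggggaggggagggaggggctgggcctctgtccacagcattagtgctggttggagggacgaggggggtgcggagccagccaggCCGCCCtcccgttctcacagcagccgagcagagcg
The window holds 68% G and C, against a median of 58.7% over the 35116 human windows of the same length. Its GC box begins at base 16 after the start. GGGCGG was found on either strand in 45.0% of all windows. The letters CCAAT (34.6% of all windows), TATAAA (11.5%) and CACGTG (7.26%), searched on both strands, were not in this window. A second RefSeq window of CRB2, chr9:123368529-123368828, held none of the 4 motifs. No protein sequences were analysed here.

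The libraries held 27323969 to 46299994 counts (median 32267434), and a count of 0 allows up to 0.0680 to 0.110 CPM (counts scaled by library size and TMM factor), for counting error only. Replicate 3 stood apart in all 6 groups, with 17817 to 20642 genes with a count against 23674 to 24947 in replicates 1 and 2, so results that change without it are given beside it. All 8 markers of serous ovarian epithelium were present in every library, with PAX8 at 380 to 625 CPM, but their sum moved with the drugs. At 4 h it was 8234 to 10062 CPM in DMSO, 11166 to 11969 under i-BET858, and 9540.5 to 10122 under i-BET151. At 24 h it was 8318 to 10050.2 CPM in DMSO, 6474 to 7249 under i-BET858, and 6478 to 7318 under i-BET151, without overlap with DMSO. Most of this sum is keratin, and the 24 h means under i-BET858 and i-BET151 were 40.5% and 49.8% of DMSO for KRT18, 59.2% and 63.8% for KRT7, and 74.1% and 71.1% for KRT8. The other markers did not fall alike, with 219% and 179% for CDH1, 106% and 97.9% for EPCAM, 102% and 121% for PAX8, 98.3% and 118% for WT1, and 84.9% and 90.9% for MUC16. The part of this shift in the results below was not tested. The 5 fibroblast markers summed to 21.3 to 50.03 CPM, nearly all of it COL1A1 (21.1 to 46.1 CPM), while DCN had at most 2 counts. The 4 leukocyte markers summed to 0 to 0.734 CPM and the 3 endothelial ones to 0.575 to 5.45 CPM. In a bulk sample, fewer cells with a transcript and less of it per cell cannot be told apart.

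In DMSO, the 10 genes spanned a wide range of levels per kilobase of exon. The length used was that of all annotated exons of a gene merged, so the order of the genes depends in part on the annotation. PRKCI was the highest at 87.1 ± 7.76 CPM per kb (SD, n = 3) at 4 h, followed by SCRIB at 36.1 ± 1.64. CRB3 (14.99 ± 1.19) and PARD3 (14.6 ± 0.829) did not differ beyond their spread, and neither did PATJ (4.98 ± 0.838) and PALS1 (5.14 ± 0.606). LLGL2 lay at 10.4 ± 0.295, PARD6B at 7.85 ± 0.362 and DLG1 at 7.27 ± 0.536 CPM per kb, the last pair with overlapping spreads. CRB2 was the lowest of the 10 at 0.682 ± 0.113 CPM per kb. CRB1, the third paralogue, had no count in DMSO at 4 h and too few in all libraries to be tested. At 24 h in DMSO, PRKCI (82.4 ± 2.04 CPM per kb) and CRB2 (1.03 ± 0.133) were again the highest and the lowest. Of the 9 genes other than CRB2, 0 passed in a comparison of DMSO at 24 h with DMSO at 4 h by edgeR's quasi-likelihood test (background 0.0386% of 18154 genes), with 1 of 9 at an unadjusted p under 0.05 and 0 by DESeq2.

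**Figure D1:**
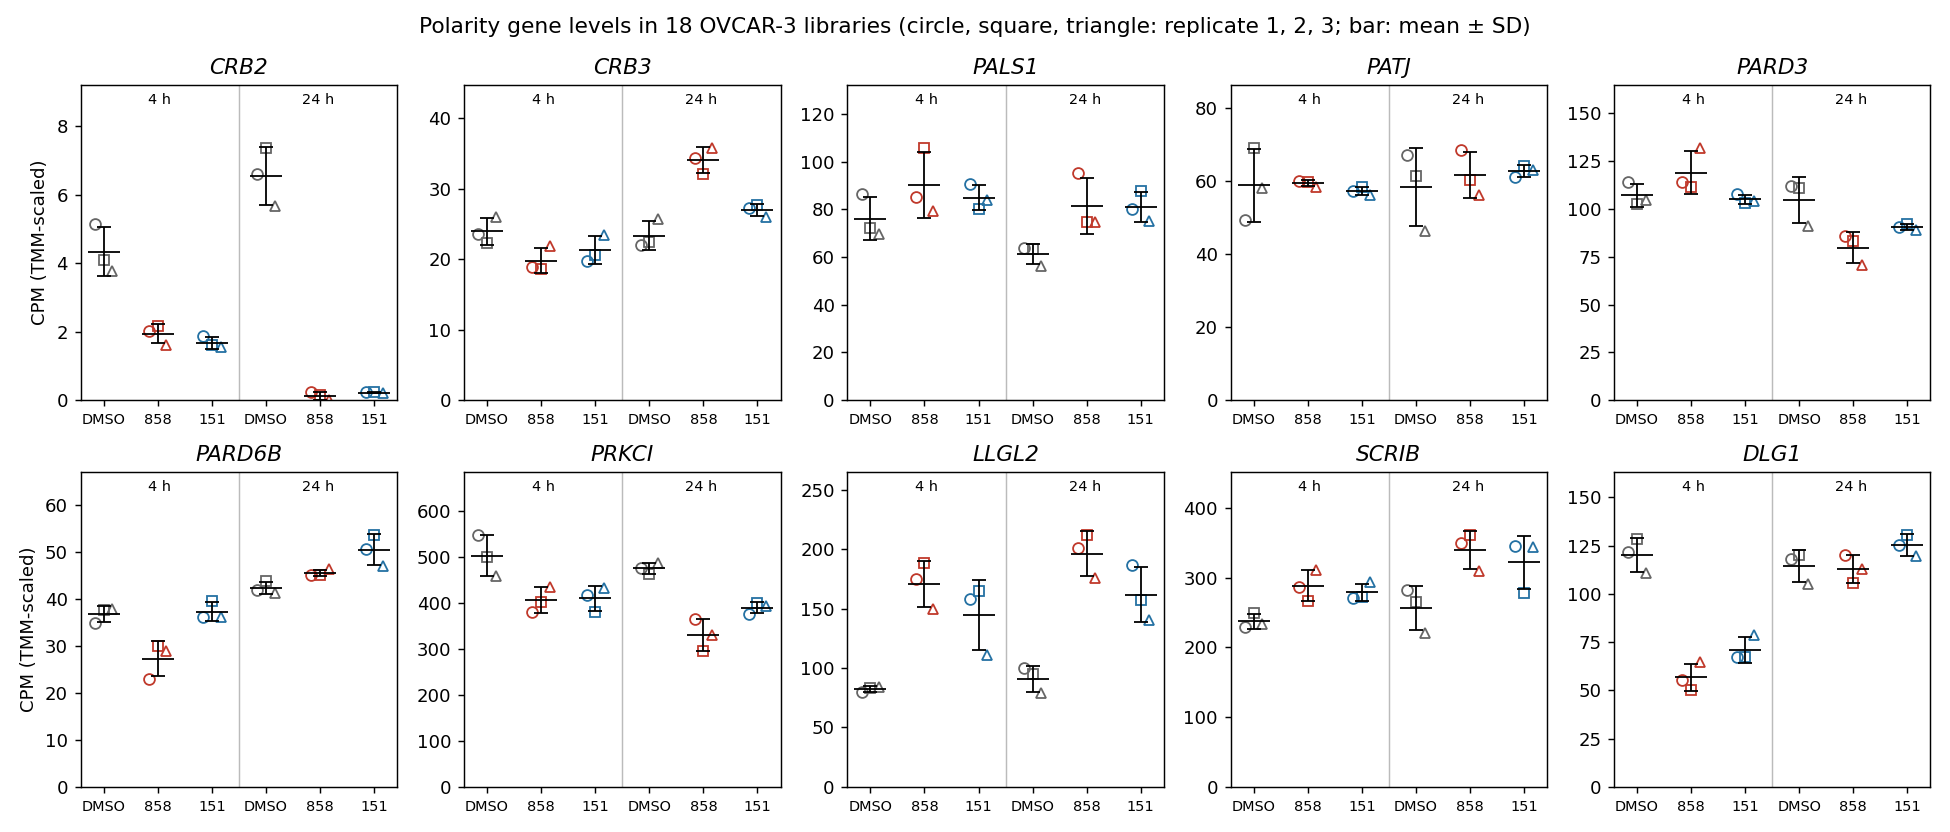
Level of each of the 10 genes in CPM (vertical axes, each from 0) in the 18 libraries, by drug and time; circles, squares and triangles are replicates 1, 2 and 3, and bars give the mean ± SD (n = 3). CRB2 lay between 1.56 and 2.17 CPM with either drug at 4 h and at most at 0.242 CPM at 24 h, against 3.76 to 7.36 CPM in DMSO.

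The first question was what each drug did to the polarity genes within 4 h. With i-BET858, LLGL2 and SCRIB rose, and CRB2, DLG1 and PARD6B fell, which is 5 of 10 genes (adjusted p under 0.05, edgeR's quasi-likelihood test with Benjamini-Hochberg adjustment) against a background of 30.8% of the 17192 genes tested. Only LLGL2, CRB2 and DLG1 also changed at least 2-fold (background 14.1%). With i-BET151, LLGL2 rose and CRB2 and DLG1 fell, 3 of 10 against a background of 16.2%. The median log2 fold change of the 10 genes was −0.11 under i-BET858, and −0.03 under i-BET151, beside 0.02 and 0.01 over all genes tested. With the replicate number as a block, 5 of 10 passed with i-BET151, PRKCI and SCRIB being added, but the share over all genes also rose, to 32.7%. Scaled to the total count, the i-BET858 calls were 1 higher and 5 lower, beside 10.2% higher and 21.6% lower over all genes. Without a filter on low counts, or with only the 2 groups compared, 3 of 10 passed with i-BET858 (17.3% and 31.3% of all genes).

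CRB2, the Crumbs protein whose short tail binds PALS1, had 5.14, 4.09 and 3.76 CPM in DMSO at 4 h (replicates 1, 2 and 3). It had 2.01, 2.17 and 1.62 CPM under i-BET858, and 1.88, 1.60 and 1.56 CPM under i-BET151. Neither drug group overlapped with DMSO, and the drug groups overlapped with each other. The fall was 2.21-fold with i-BET858 (log2 fold change −1.15, SE 0.27, edgeR adjusted p = 0.00724) and 2.56-fold with i-BET151 (−1.36, SE 0.27, edgeR adjusted p = 0.00614), and held in 9 of 9 treated-to-DMSO pairs for both. These early libraries were not used to pick CRB2, and the calls passed in all 18 alternatives run for each drug. Replicate 3 alone showed log2 differences of −1.18 and −1.24, against −1.11 and −1.39 in a fit of replicates 1 and 2.

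At 24 h CRB2 was close to the detection floor with both drugs. In DMSO it had 6.61, 7.36 and 5.68 CPM (217, 218 and 182 counts). With i-BET858 it had 0.227, 0.139 and 0 CPM, from 10, 5 and 0 counts, where a count of 0 in replicate 3 allows up to 0.0858 CPM. With i-BET151 it had 0.224, 0.242 and 0.199 CPM, from 9, 8 and 7 counts. The treated means were thus 1.86% and 3.38% of the DMSO mean, after 44.7% and 38.8% at 4 h. The fitted log2 fold changes, given as a description, were −5.71 (SE 0.59) with i-BET858 and −4.89 (SE 0.56) with i-BET151, ranks 20 and 41 from the lowest of 17157 genes. A fit of replicates 1 and 2 gave −5.25 and −4.93. With so few counts, the fitted value for i-BET858 moved between −6.50 and −5.17 over the alternatives. Between 4 and 24 h, the log2 fold change of CRB2 changed by −4.52 under i-BET858 and by −3.51 under i-BET151, given here without a test. Over the alternatives these changes ranged from −5.31 to −4.00 and from −3.64 to −3.42. Both changes take in a higher CRB2 mean in DMSO at 24 h (6.55 CPM) than at 4 h (4.33 CPM). That log2 difference was 0.61, also given without a test.

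**Figure D2:**
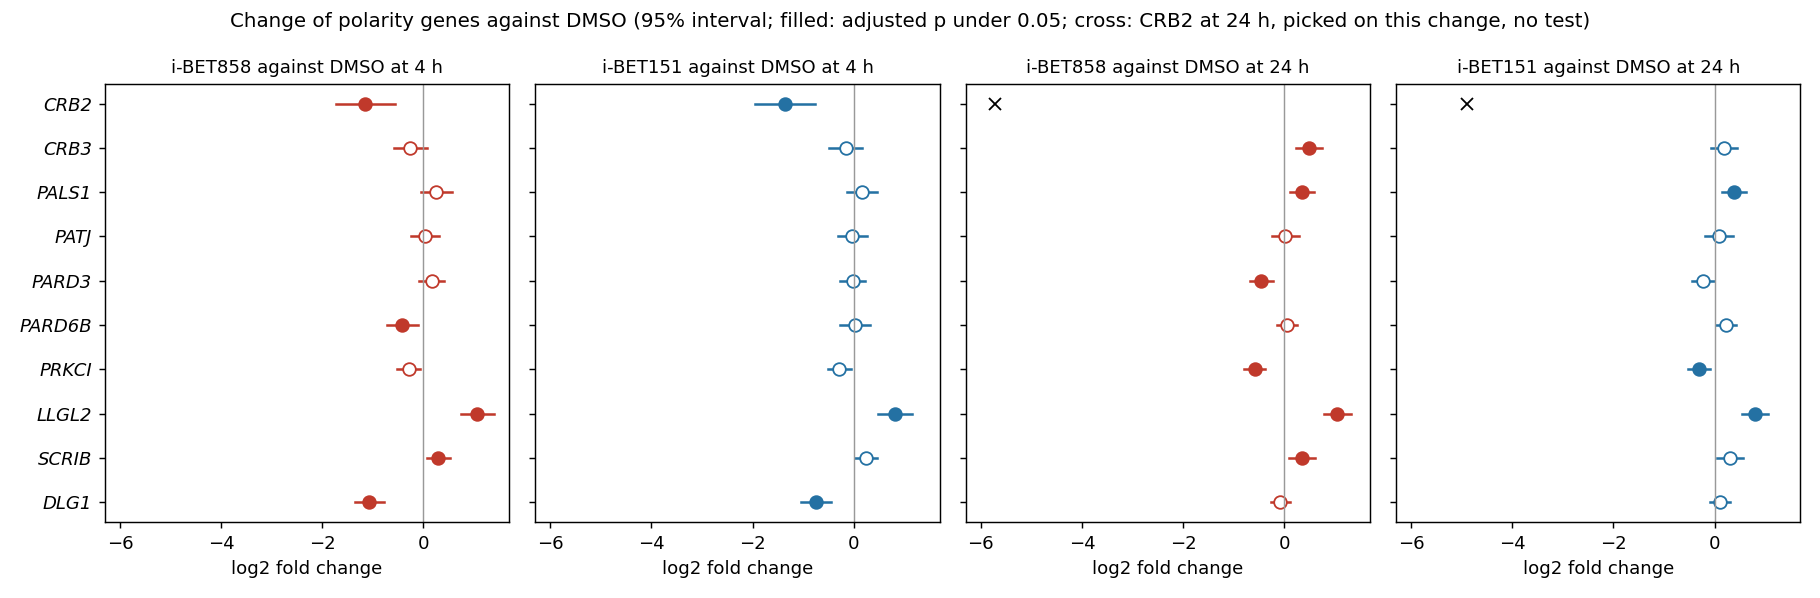
Log2 fold change against DMSO (horizontal axes) of the 10 genes for each drug and time, with 95% intervals; filled points passed an adjusted p under 0.05, open points did not, and crosses mark CRB2 at 24 h, which was picked on this change and has no test. LLGL2 lay to the right of 0 in all 4 panels (0.80 to 1.07), and DLG1 to the left at 4 h (−1.07 and −0.75) but near 0 at 24 h.

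The genes beside CRB2 on chromosome 9 were measured in the same libraries. STRBP, the nearest protein-coding gene before CRB2, encodes an RNA-binding protein. It is on the minus strand, and its nearest base lies 87584 bp away. DENND1A, which encodes an exchange factor of Rab35, is on the opposite strand and overlaps 362 exon bases of CRB2. LHX2, a LIM homeobox gene, is the nearest one after CRB2 that does not overlap it and starts 621346 bp away. STRBP had 177, 177 and 136 CPM in DMSO at 24 h, 235, 211 and 194 under i-BET858, and 210, 208 and 174 under i-BET151. It rose with i-BET858 (log2 fold change 0.33, edgeR adjusted p = 0.0357) and did not pass with i-BET151 (0.25, 0.111). The rise did not pass without DMSO replicate 2 or 3 or i-BET858 replicate 1 or 2 (adjusted p 0.0543 to 0.132) or with scaling to the total count (0.183). With the replicate block STRBP passed with i-BET151 as well (adjusted p = 0.0142), as it did without replicate 3 (0.20, 0.0255).

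DENND1A had 31.9, 32.7 and 41.6 CPM in DMSO at 24 h, 24.0, 20.1 and 26.2 under i-BET858, and 21.0, 23.6 and 32.4 under i-BET151. The i-BET858 group lay below DMSO, while replicate 3 of i-BET151 lay among the DMSO values. It fell with i-BET858 (log2 fold change −0.65, edgeR adjusted p = 0.0215), a call that did not pass without DMSO replicate 3 or i-BET858 replicate 1 or 2 (0.0634 to 0.0915). With i-BET151 the value was −0.49 (adjusted p = 0.0832, and 0.00246 with the replicate block), and the call passed without i-BET151 replicate 3 (−0.72, 0.0120), without replicate 3 of all groups (−0.58, 7.31e-04), with scaling to the total count (0.0480) and without a filter on low counts (0.0143). At 4 h its log2 fold changes were 0.45 with i-BET858 (adjusted p = 0.101, and 0.0130 with the block) and 0.19 with i-BET151 (0.561). The strand used in counting is not given in the sources used here, so reads of the 362 shared bases cannot be assigned to CRB2 or DENND1A, and their part in the values was not tested. LHX2, from levels of 1.13 to 1.28 CPM in DMSO at 4 h, rose at 4 h with i-BET858 (1.703, edgeR adjusted p = 6.62e-04) and i-BET151 (1.49, 0.00359). At 24 h its values were −0.59 (0.191) and −0.02 (0.976), and without replicate 3 the i-BET858 value passed (−0.80, 0.0117).

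**Figure D3:**
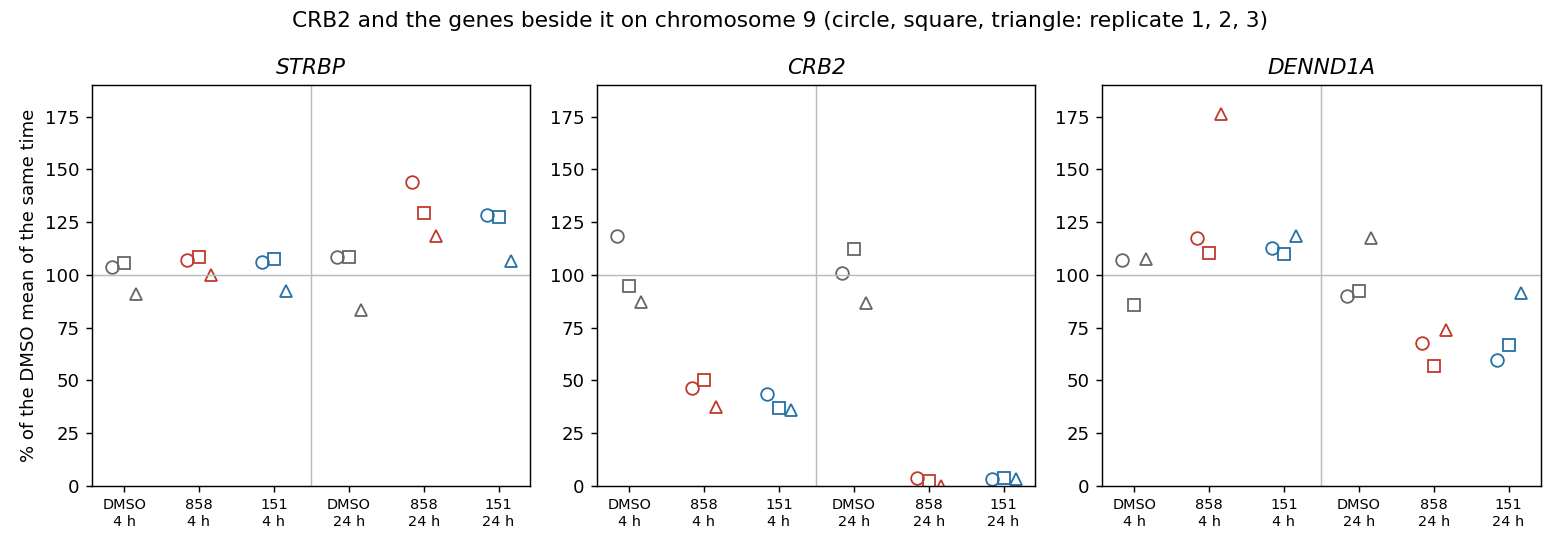
Level of STRBP, CRB2 and DENND1A in each library as a percentage of the DMSO mean of the same time (vertical axis), by drug and time; circles, squares and triangles are replicates 1, 2 and 3. With i-BET858 and i-BET151 at 24 h, CRB2 had a mean of 1.86% and 3.38% of DMSO, while STRBP had 131% and 121% and DENND1A 66.2% and 72.5%.

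CRB3 (ENSG00000130545.16, chr19:6463777-6467221), the Crumbs protein found widely in epithelia, was higher at 24 h. It had 22.0, 22.5 and 25.7 CPM in DMSO at 24 h, 34.3, 32.1 and 35.8 under i-BET858, and 27.3, 27.7 and 26.0 under i-BET151. All treated libraries lay above all DMSO libraries. CRB3 rose 1.4-fold with i-BET858 (log2 fold change 0.49, SE 0.12, edgeR adjusted p = 0.00647) and did not pass with i-BET151 (0.18, 0.268), where a fit without replicate 3 gave 0.26 (0.0252). At 4 h its values were −0.26 (adjusted p = 0.220) with i-BET858 and −0.16 (0.526) with i-BET151. With i-BET858 at 4 h, scaling to the total count gave −0.42 (0.0374).

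PALS1 (ENSG00000072415.8, chr14:67240713-67336061), the scaffold that joins Crumbs to PATJ, had 64.0, 63.4 and 56.4 CPM in DMSO at 24 h. It had 95.2, 74.8 and 74.8 CPM under i-BET858, and 80.2, 87.8 and 74.99 under i-BET151, above DMSO in 9 of 9 pairs for each drug. It rose 1.28-fold (log2 fold change 0.36, edgeR adjusted p = 0.0192) and 1.30-fold (0.38, 0.0174). The i-BET858 call did not pass without DMSO replicate 2 (0.0537), without i-BET858 replicate 1 (0.0974) or with scaling to the total count (0.103), and the i-BET151 call did not pass without DMSO replicate 2 (0.0533) or i-BET151 replicate 2 (0.0834). At 4 h PALS1 did not pass with either drug (0.26 and 0.17). The PALS1 mean in DMSO was 76.2 CPM at 4 h and 61.3 at 24 h, lower in 9 of 9 pairs (log2 difference −0.30, edgeR adjusted p = 0.432). Under i-BET858 the mean was 90.2 CPM at 4 h and 81.6 at 24 h, and under i-BET151 85.0 and 81.0. Of its exon bases, 1661 are overlapped by genes on the opposite strand, among them ATP6V1D. PATJ (ENSG00000132849.20, chr1:61742477-62178675), the multi-PDZ scaffold, passed in none of the drug comparisons by edgeR, DESeq2 or any other alternative. Its 18 values lay between 46.4 and 69.1 CPM, and its log2 fold changes against DMSO between −0.03 and 0.09.

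In the PAR complex, PRKCI (ENSG00000163558.13, chr3:170222424-170305977), the atypical protein kinase C of the complex, was lower with the drugs. At 4 h it had 549, 502 and 460 CPM in DMSO, 380, 402 and 436 under i-BET858, and 419, 381 and 433 under i-BET151. The groups did not overlap with DMSO, but neither drug passed at 4 h (log2 fold change −0.29, edgeR adjusted p = 0.0565, and −0.28, 0.0965). Both passed with the replicate block (adjusted p = 0.00872 and 0.0149) and without replicate 3 (−0.40, 0.00982 and −0.38, 0.0225), and replicate 3 alone showed differences of −0.08 and −0.09. Without i-BET858 replicate 3 alone, the i-BET858 value was −0.36 (0.0354). Both also passed with scaling to the total count (−0.45, 0.00309 and −0.34, 0.0269) and in a fit of all 18 libraries (0.0245 and 0.0495). At 24 h PRKCI had 477, 464 and 487 CPM in DMSO, 366, 297 and 331 under i-BET858, and 376, 400 and 395 under i-BET151, again without overlap. It fell 1.496-fold with i-BET858 (−0.58, SE 0.10, edgeR adjusted p = 6.56e-04) and 1.24-fold with i-BET151 (−0.31, 0.0283). The i-BET151 call did not pass without DMSO replicate 1, 2 or 3 or i-BET151 replicate 1 or 2 (adjusted p 0.05002 to 0.106), nor without a filter on low counts (0.0703).

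PARD3 (ENSG00000148498.16, chr10:34109560-34815325), the scaffold that recruits PAR6 and aPKC to the junction, had 112, 111 and 91.0 CPM in DMSO at 24 h. It had 85.7, 83.2 and 70.6 CPM with i-BET858, all below DMSO, and 90.5, 92.0 and 88.9 with i-BET151, where the groups overlapped. It fell 1.36-fold with i-BET858 (log2 fold change −0.45, SE 0.10, edgeR adjusted p = 0.00438). With i-BET151 the value was −0.23 (adjusted p = 0.0991), and the call passed with the replicate block (0.0420), with DESeq2 (0.0384), without DMSO replicate 3 (−0.29, 0.0372) and without replicate 3 of all groups (−0.33, 0.00144). At 4 h PARD3 did not pass (0.17 and −0.02).

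PARD6B (ENSG00000124171.9, chr20:50731580-50756795), which links PAR3, aPKC and CDC42, was lower with i-BET858 at 4 h. At 4 h it had 34.9, 37.7 and 37.9 CPM in DMSO, 23.0, 30.0 and 29.0 under i-BET858, and 36.3, 39.6 and 36.1 under i-BET151. The i-BET858 group lay below the other 2 groups, which overlapped. It fell 1.33-fold with i-BET858 (log2 fold change −0.41, SE 0.14, edgeR adjusted p = 0.0413) and showed 0.03 with i-BET151 (0.925). The i-BET858 call did not pass without DMSO replicate 1, 2 or 3, i-BET858 replicate 1 or i-BET151 replicate 1 or 2 (0.0601 to 0.149), nor without a filter on low counts (0.0806) or with only the 2 groups compared (0.0778). At 24 h the log2 fold changes were 0.05 (0.687) and 0.23 (0.0735), the latter passing with the replicate block (0.0459) and without replicate 3 (0.0252).

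In the Scribble module, LLGL2 (ENSG00000073350.13, chr17:75525080-75575209), the LGL protein that aPKC keeps off the apical surface, rose in all 4 comparisons. At 4 h it had 79.7, 83.2 and 84.2 CPM in DMSO, 175, 188 and 150 under i-BET858, and 158, 165 and 111 under i-BET151. At 24 h it had 99.8, 94.7 and 78.9 CPM in DMSO, 201, 212 and 176 under i-BET858, and 187, 157 and 141 under i-BET151. All treated libraries lay above all DMSO libraries of the same time, with replicate 3 the lowest of each treated group. The rise was 2.09-fold with i-BET858 at 4 h (log2 fold change 1.07, SE 0.15, edgeR adjusted p = 2.91e-04) and 2.08-fold at 24 h (1.05, SE 0.12, 5.49e-05). With i-BET151 it was 1.76-fold at 4 h (0.82, edgeR adjusted p = 0.00367) and 1.74-fold at 24 h (0.80, 4.90e-04). These 4 calls passed in all alternatives run.

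SCRIB (ENSG00000180900.19, chr8:143790920-143815773), the scaffold that names the module, had 229, 250 and 234 CPM in DMSO at 4 h, 287, 267 and 312 under i-BET858, and 272, 272 and 294 under i-BET151. At 24 h it had 283, 266 and 221 CPM in DMSO, 349, 362 and 309 under i-BET858, and 345, 278 and 344 under i-BET151. The i-BET858 groups did not overlap with DMSO at either time. SCRIB rose with i-BET858 at 4 h (log2 fold change 0.30, edgeR adjusted p = 0.0472) and at 24 h (0.35, 0.0339). The 4 h call did not pass without DMSO replicate 1, 2 or 3, i-BET858 replicate 1 or 3, i-BET151 replicate 1 or 2 (0.0713 to 0.142) or the whole of replicate 3 (0.0948), and the 24 h call without DMSO replicate 2 or 3 or i-BET858 replicate 1 or 2 (0.0722 to 0.118). Scaling to the total count gave 0.14 (adjusted p = 0.320) at 4 h and 0.26 (0.130) at 24 h, and the 4 h call also did not pass without a filter on low counts (0.193) or with only the 2 groups compared (0.0696). With i-BET151 the values were 0.24 (0.142) and 0.31 (0.0673), and both passed with the replicate block (0.0237 and 0.0274). The 24 h value also passed without i-BET151 replicate 2 (0.41, 0.0340) and in a fit of all 18 libraries (0.0274).

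DLG1 (ENSG00000075711.20, chr3:197042560-197299330), the MAGUK scaffold of the module, fell at 4 h and did not pass at 24 h. At 4 h it had 122, 128 and 111 CPM in DMSO, 55.4, 50.3 and 64.4 under i-BET858, and 67.1, 67.0 and 78.8 under i-BET151. None of the 3 groups overlapped. It fell 2.09-fold with i-BET858 (log2 fold change −1.07, SE 0.13, edgeR adjusted p = 1.34e-04) and 1.68-fold with i-BET151 (−0.75, SE 0.13, 0.00293), in all alternatives run. At 24 h it had 118, 120 and 105 CPM in DMSO, 120, 106 and 113 under i-BET858, and 125, 131 and 120 under i-BET151. The i-BET858 values overlapped with those of DMSO, and neither drug passed (−0.07, 95% interval −0.27 to 0.12, and 0.11, −0.09 to 0.30). Of its exon bases, 479 are overlapped by DLG1-AS1 on the opposite strand.

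In all, 6 of the 9 genes other than CRB2 passed with i-BET858 at 24 h, with CRB3, PALS1, LLGL2 and SCRIB higher and PARD3 and PRKCI lower, against a background of 41.7% of 17157 genes. Only LLGL2 changed at least 2-fold (background 18.8%). With i-BET151 at 24 h, PALS1 and LLGL2 were higher and PRKCI lower, 3 of 9 against a background of 33.8%, and 6 of 9 against 45.9% with the replicate block. The median log2 fold change of the 9 genes was 0.05 under i-BET858, and 0.18 under i-BET151, beside −0.01 and 0.00 over all genes. Scaled to the total count, 4 of 9 passed with i-BET858, 2 higher and 2 lower, beside 17.1% higher and 24.1% lower over all genes. Without DMSO replicate 2 or i-BET858 replicate 1, 4 of 9 passed with i-BET858 (33.1% and 32.7% of all genes). Without DMSO replicate 2, 1 of 9 passed with i-BET151 (24.7% of all genes). Without DMSO replicate 1, i-BET151 replicate 1 or i-BET151 replicate 2, 2 of 9 did (26.5%, 26.8% and 23.8%). Without replicate 3 it was 6 of 9, beside 54.2% of all genes in that fit.

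Whether the drug effect itself changed between 4 and 24 h was tested in a fit of all 18 libraries. With i-BET858, 4 of 9 genes passed, against a background of 27.2%. DLG1 (change of the log2 fold change 1.04, edgeR adjusted p = 9.49e-05), CRB3 (0.79, 0.00308) and PARD6B (0.51, 0.0223) had a higher value at 24 than at 4 h, and PARD3 (−0.57, 0.00704) a lower one. The PARD6B change did not pass without DMSO replicate 3 (0.0520) or i-BET858 replicate 1 (0.0698) of 4 h. Without a filter on low counts, neither PARD6B (0.121) nor PARD3 (0.0541) passed, which left 2 of 9 against 13.8% of all genes. With i-BET151, DLG1 alone passed (0.88, edgeR adjusted p = 0.00123), 1 of 9 against a background of 13.8%. LLGL2 had changes of 0.03 (95% interval −0.38 to 0.44) and 0.00 (−0.41 to 0.42).

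i-BET858 and i-BET151 were compared directly at the same dose and time, over all 10 genes at 4 h and 9 at 24 h (19 pairs, with p-values adjusted over all genes tested). By edgeR's quasi-likelihood test 0 of 10 passed at 4 h (background 0.971%), with 2 at an unadjusted p under 0.05 and 0 by DESeq2. At 24 h 0 of 9 passed (background 0.21%), also with 2 at an unadjusted p under 0.05 and 0 by DESeq2. PARD6B was lower with i-BET858 at 4 h in 9 of 9 pairs (log2 difference −0.44, 95% interval −0.74 to −0.14, edgeR adjusted p = 0.182). It passed with the replicate block (0.0196) and in a fit of all 18 libraries (0.0352), which called 9.63% and 3.02% of all genes. DLG1 differed by −0.32 at 4 h (−0.61 to −0.02, adjusted p = 0.366), also lower in 9 of 9 pairs. At 24 h CRB3 was 0.31 higher with i-BET858 (0.05 to 0.56, adjusted p = 0.335) and PRKCI 0.27 lower (−0.48 to −0.06, 0.290). For CRB2 at 4 h the difference was 0.21 with an interval of −0.39 to 0.81 (adjusted p = 0.865), which leaves room for a difference in either direction. For LLGL2 it was 0.25 at both times (−0.08 to 0.57 and −0.01 to 0.51).

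A wider list of 41 polarity and junction genes set the 10 genes in their pathway, and 40 of them could be tested. With i-BET858, 18 of 40 passed at 4 h (9 higher, 9 lower) beside a background of 14.5% higher and 16.3% lower. Scaled to the total count, this split was 5 higher and 15 lower, where the shares over all genes were 10.2% and 21.6%. At 24 h 16 of 40 did (12 higher, 4 lower) beside 20.5% higher and 21.3% lower. With i-BET151, 9 passed at 4 h (3 higher, 6 lower) beside 7.81% higher and 8.43% lower. At 24 h 14 did (12 higher, 2 lower) beside 17.2% higher and 16.6% lower. Scaled to the total count, this last split was 11 higher and 4 lower, beside 15.6% and 17.6%. With the replicate block 23 and 21 of 40 passed with i-BET858 at 4 and 24 h, beside 45.4% and 52% of all genes, and 19 and 23 of 40 with i-BET151, beside 32.7% and 45.9%. Without replicate 3 it was 23 and 26 of 40 with i-BET858, beside 41.9% and 60.7%, and 14 and 26 of 40 with i-BET151, beside 25.9% and 54.2%. The median log2 fold change of the list was −0.08 and −0.07 at 4 h, and 0.18 and 0.25 at 24 h, for i-BET858 and i-BET151. In DMSO at 24 h against DMSO at 4 h its median was −0.12, beside −0.01 over all genes. There 0 of 40 passed by edgeR, with 13 at an unadjusted p under 0.05 and 4 by DESeq2. Over all 18154 genes, 1664 had an unadjusted p under 0.05, and DESeq2 called 55 higher and 155 lower. The genes described next passed at 2-fold or more in at least 1 comparison, up to 3 of a module, except DLG2 and DLG5, which were added as the remaining DLG paralogues after their values were seen.

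In the Crumbs module, EPB41L5, a FERM protein that binds Crumbs, rose with both drugs at both times. Its mean was 25.7 ± 3.35 CPM in DMSO at 4 h, 60.1 ± 16.9 under i-BET858, and 49.8 ± 6.37 under i-BET151 (SD, n = 3). The log2 fold changes were 1.24 and 0.96 at 4 h and 1.39 and 1.12 at 24 h (edgeR adjusted p 6.33e-04, 0.00656, 4.59e-06 and 3.28e-05). Among PAR genes and kinases, TIAM1, an exchange factor of RAC1 that binds PARD3, also rose in all 4 comparisons, by 1.396, 0.98, 1.67 and 1.68 in the same order of drug and time. At the apical surface, NHERF1, the scaffold that ties membrane proteins to ezrin, rose from 142 ± 4.25 CPM in DMSO to 676 ± 55.0 under i-BET858, and 471 ± 26.5 under i-BET151 at 4 h. Its log2 fold changes were 2.26 and 1.73 at 4 h and 1.66 and 1.30 at 24 h. CDH1, the E-cadherin of adherens junctions, rose with i-BET858 at 4 h (0.71, edgeR adjusted p = 0.00492) and with both drugs at 24 h (1.08 and 0.82). With i-BET151 at 4 h it had 0.34 (adjusted p = 0.165, and 0.00742 with the replicate block). In DMSO the CDH1 mean was 315 ± 31.9 CPM at 4 h and 222 ± 5.03 at 24 h. Under i-BET858 it was 511 and 486 CPM, and under i-BET151 398 and 397. The DMSO values differed by −0.50 (edgeR adjusted p = 0.252), which passed with the replicate block (0.0112) and without a filter on low counts (0.0379).

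DLG3, like DLG1 a MAGUK scaffold, fell at 4 h with i-BET858 (log2 fold change −1.69, edgeR adjusted p = 1.06e-05) and i-BET151 (−1.19, 2.64e-04). At 24 h it had −0.40 (adjusted p = 0.0645, and 0.001004 with the block, 0.0396 with DESeq2 and 0.0261 without a filter on low counts) and −0.15 (0.497). Without replicate 3 both passed (−0.43, 2.00e-04, and −0.20, 0.0300), and without DMSO replicate 3 alone the i-BET858 value did (−0.52, 0.0159). DLG4, the postsynaptic MAGUK PSD-95, had 0.14 and −0.09 at 4 h and fell at 24 h with i-BET858 (−2.05, edgeR adjusted p = 1.16e-05) and i-BET151 (−1.55, 1.08e-04). Its mean went from 16.4 ± 2.13 CPM in DMSO at 24 h to 4.12 ± 0.609 and 5.71 ± 1.01 CPM. For DLG1, DLG3 and DLG4, the change of the effect between 4 and 24 h passed with both drugs. DLG5 passed in none of the 4 comparisons with DMSO by edgeR, and DLG2 had values of 1.33 to 1.504 without passing. The DLG2 values rest on few counts, with means of 0.284 CPM in DMSO at 4 h and 0.352 at 24 h. Under the drugs its means were 0.715 to 1.03 CPM.

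**Figure D4:**
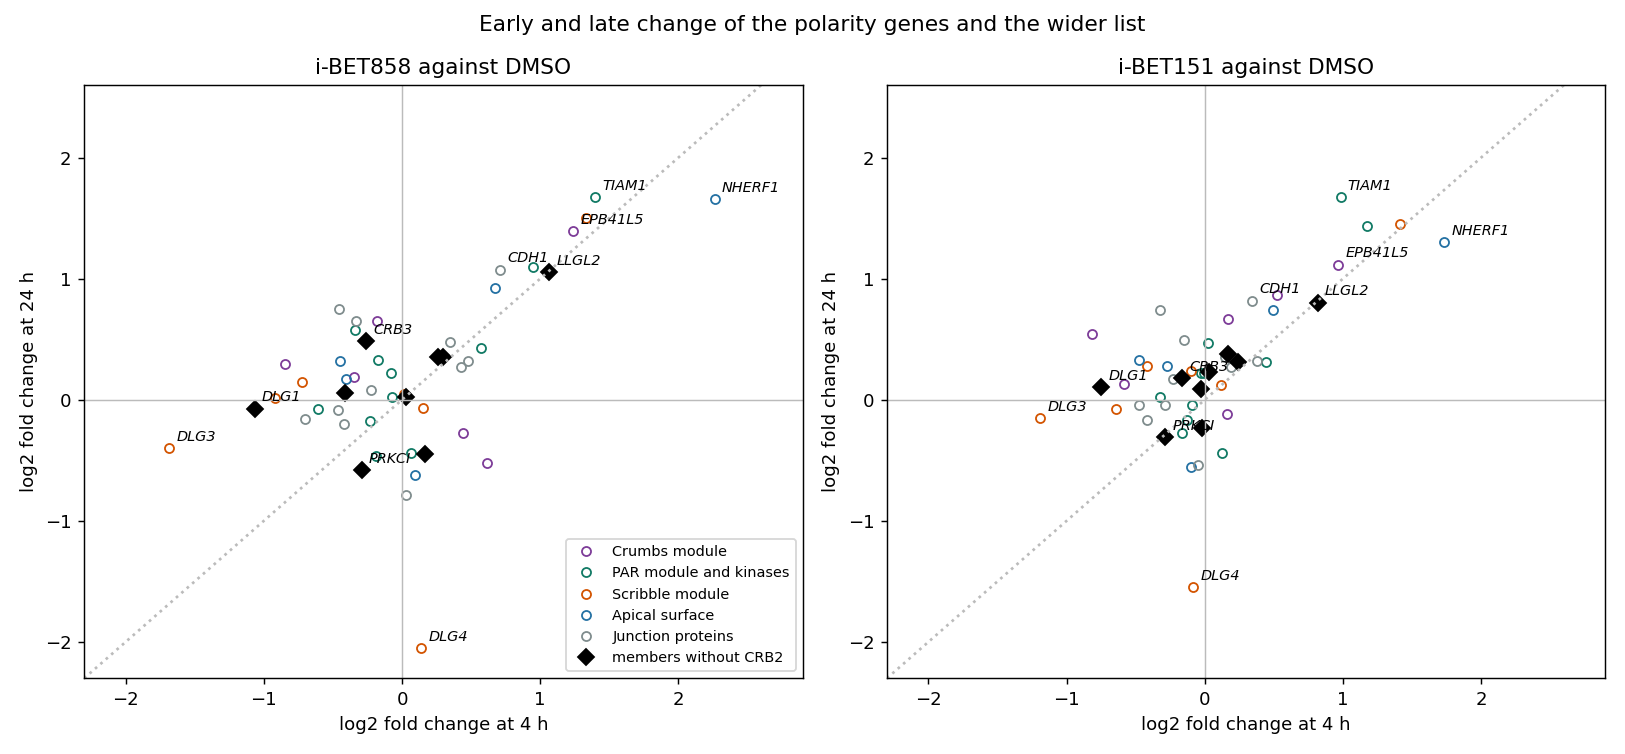
Log2 fold change against DMSO at 24 h (vertical axis) against that at 4 h (horizontal axis) for the 40 tested genes of the wider list by module (open circles) and the 9 genes other than CRB2 (filled diamonds), for i-BET858 (left) and i-BET151 (right); the dotted line marks equal change. TIAM1, NHERF1, EPB41L5 and LLGL2 lie in the upper right, DLG1 and DLG3 left of 0, and DLG4 below 0 at 24 h (−2.05 and −1.55).

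The genes whose pattern was most like that of CRB2 were found by Pearson's r of log2 CPM over the 18 libraries among 12431 genes. This is a description, since these libraries share drug, time and replicate and hold the 24 h values on which CRB2 was picked. Every r below therefore also reflects that choice. The most alike genes were CC2D2A (r = 0.981), TBKBP1 (0.981), FAM136A (0.978), CASP8 (0.972) and RAP1GAP (0.972). TBKBP1 went from a mean of 16.8 CPM in DMSO at 24 h to 1.97 under i-BET858, and 3.39 under i-BET151. CC2D2A went from 20.9 to 5.20 and 7.996 CPM, while CASP8 went from 43.8 to 23.7 and 26.9 CPM. Among the 9 other polarity genes, r with CRB2 was 0.833 for PRKCI and 0.779 for PARD3, −0.195 for DLG1, −0.226 for PATJ, −0.31 for PALS1, −0.486 for PARD6B, and −0.723, −0.738 and −0.768 for CRB3, LLGL2 and SCRIB.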

How the data were processed

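As deposited, the values were raw counts per gene, which the authors made by aligning poly-A reads to GRCh38 with STAR and counting reads on genes. The annotation and the strand column are not given in the sources used here. Of 58825 identifiers, 58472 (99.4%) matched GENCODE 44. The labels' time points were matched to the 2 tables, 1 per time point. The model was edgeR 4.0.16 (R 4.3.3) with TMM factors of 0.907 to 1.08, its filter for weakly expressed genes and its quasi-likelihood test. It took the 9 libraries of a time point in 1 fit, or all 18 for changes between times. A gene passed at a Benjamini-Hochberg adjusted p under 0.05 over all genes tested, and p-values measure the spread between the 3 labelled replicates. CPM were TMM-scaled over the 18 libraries. Intervals are 95%.

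Libraries with the same replicate number deviated together (correlations 0.124 to 0.344 at 4 h and 0.144 to 0.329 at 24 h), so the numbers were taken to pair them. The main tests used group means only, without this pairing. Only the replicate block, run as an alternative, included it. Libraries with different numbers correlated by up to 0.216 and 0.285, all such positive values being between replicates 1 and 2, so it was mainly replicate 3 that was set apart. Replicates differed by 4.19 to 66.1 times counting error (chi-square per degree of freedom).

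The 10 genes, the wider list (Crumbs, PAR and Scribble modules, apical surface, junctions), the cell type markers and the naming rules were chosen with earlier results of these data known. Of the wider list, genes past the threshold at 2-fold or more in a comparison with DMSO are named, at most 3 of a module. CRB2 neighbours are the nearest protein-coding genes, with DENND1A named because it overlaps. The script was tested on simulated data. Alternatives were DESeq2 1.42.0, its size factors, total counts, no filter, at least 10 counts in every library, the replicate block, 2 groups alone, all 18 libraries and leaving out each library or replicate 3.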

Additional observations from a re-analysis of the deposited data

Results flagged for a closer look

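Several results were singled out because the effect of a drug differed between the time points, tested as an interaction over 18 libraries with edgeR's quasi-likelihood test. The change of the log2 fold change from 4 to 24 h with i-BET858 was 0.79 for CRB3, −0.57 for PARD3, 0.51 for PARD6B and 1.04 for DLG1. With i-BET151 it was 0.88 for DLG1. Among the wider list, it was 1.33 for DLG3 and −2.15 for DLG4 with i-BET858, and 1.06 for DLG3 and −1.44 for DLG4 with i-BET151. NHERF1 was less raised with i-BET858 at 24 than at 4 h, by −0.56 (adjusted p = 0.00465). With i-BET151 the change was −0.41 (adjusted p = 0.0502), which passed with the replicate block (0.0162), with DESeq2 (0.0213) and without replicate 3 (−0.53, 0.00400), among others.

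NHERF1 also differed between the drugs at 4 h, with a log2 difference of 0.53 (higher with i-BET858 in 9 of 9 pairs, edgeR adjusted p = 0.0298). This call did not pass without DMSO replicate 1 or 2, without any single i-BET858 or i-BET151 library of 4 h (adjusted p 0.0512 to 0.128), with only the 2 groups compared (0.0960), or with scaling to the total count (0.0618). At 24 h the difference was 0.36 (adjusted p = 0.225), which passed with the replicate block (0.0198) and without replicate 3 (0.00555).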

How the results depend on the processing

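Of the 22 calls of polarity genes, 14 passed in all alternatives run and 8 were lost in at least 1, and no call was reversed. Of 1823 alternative values, 1671 kept direction and call, and 86, in 23 results that did not pass (log2 values at most 0.134 from 0), lay on the other side of 0. The 1823 include CRB2 values that use 24 h libraries, which have no call. Such a value counted as kept if its direction held and it moved by less than the SD between replicates. With a 2-fold minimum the counts at 4 h were 3 (i-BET858) and 1 (i-BET151) of 10, those at 24 h 1 and 0 of 9, and those for the change between times 1 and 0. The wider list then had 4 and 2 at 4 h and 5 and 4 at 24 h. At this minimum, i-BET858 called 14.1% of all genes at 4 h and 18.8% at 24 h. i-BET151 called 709 genes higher and 511 lower of 17192 at 4 h, then 959 higher and 1388 lower of 17157 at 24 h. Of 18154 genes, the change between times passed at 2-fold for 1247 higher and 1491 lower under i-BET858. Under i-BET151 this held for 454 higher and 763 lower. For i-BET858 at 4 h, 3 of 10 passed without a filter on low counts (17.3% of all genes) and with only the 2 groups compared (31.3%). For the change of the i-BET858 effect, 2 of 9 passed without the filter (13.8%). With the replicate block the pairing gave 5 of 10 and 6 of 9 with i-BET151 at 4 and 24 h, 19 and 23 of the wider list, and 1 of 10 between the drugs at 4 h, as did a fit of all 18 libraries (9.63% and 3.02% of all genes). Calls of the 10 genes that the block changed stand beside their results, and it changed no other call of theirs. Leaving out libraries gave 3 to 5 and 3 to 4 of 10 against DMSO at 4 h, 4 to 6 and 1 to 6 of 9 at 24 h, and 3 to 4 and 1 to 1 for the changes between times. Between the drugs, and in DMSO over time, it gave 0 to 0. Over all genes, the changes between times then went from 2178 higher and 1880 lower of 18860 to 3605 and 3699 of 18011 with i-BET858. With i-BET151 they went from 760 and 835 of 18884 to 2224 and 2511 of 18011. For the wider list, leaving out libraries gave 14 to 23, 8 to 14, 12 to 26 and 11 to 26, the highest of each without replicate 3. Over all genes, the lowest shares at 24 h were 32.7% with i-BET858 (without its replicate 1) and 23.8% with i-BET151 (without its replicate 2). At 4 h the lowest were 1882 higher and 2251 lower of 17826 with i-BET858 (without DMSO replicate 1). With i-BET151 they were 880 and 805 of 17858 (without its replicate 2). The highest were without replicate 3, at 41.9% and 25.9% at 4 h and 60.7% and 54.2% at 24 h. Scaling to total counts moved the median log2 fold change of all genes with i-BET858 from 0.02 to −0.14 at 4 h and from −0.01 to −0.10 at 24 h. The causes of these shifts were not tested. CRB2 at 24 h could not be fitted with at least 10 counts in every library.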
